A study of Linum usitatissimum with 4 samples.

Results

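The CHH cytosines described here lie more than 10000 bp from the nearest annotated gene start in the authors' deposited tables of cytosines whose methylation differed from the control in flax seedlings (Linum usitatissimum, variety JRF-2). They were chosen by that distance alone, whatever the size or sign of their difference. The rule found 634 listings, which is 634 of the 1596 CHH listings and of the 1894 listings in all contexts. Of these, 51 came from heat, 174 from 5-azacytidine and 409 from 5-azacytidine followed by heat, each against the same control. Because a cytosine may be listed in more than 1 comparison, the 634 listings are 570 distinct cytosines, each 1 bp long.

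All 4 groups grew at 22 ± 2 °C under days of 16 h light and nights of 8 h, and each is given as 21 days old. The control group had neither treatment. The heat group was held at 40 ± 2 °C and 70% relative humidity for 4 h on each of 5 days from day 21, and then returned to 22 °C to recover. For the 5-azacytidine group, seeds were soaked in a 1 mM solution for 24 h in the dark at 20 °C and the seedlings were not heated. In the remaining group, seeds had the same soak and the seedlings the same heat. Each group is 1 library from the shoot apices (3 to 5 cm) of 10 pooled seedlings, sequenced after bisulfite conversion as paired reads of 150 bp. There is no replicate, so no difference could be set against a spread between plants, and the q-values below are the authors' own, for 1 library against 1 library. The time between the last heat treatment and sampling is not stated in the labels. Read depth at each cytosine is unknown.

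Plant DNA is methylated at CG, CHG and CHH sites, where H stands for any base but G. A CHH site has no matching cytosine on the opposite strand, so its methylation is not simply copied at replication and has to be set again. In Arabidopsis this is done by DRM2, which small RNAs guide to short transposons and to the edges of longer ones, and by CMT2, which acts inside long transposons in heterochromatin. Sequence far from genes is typically rich in such elements. 5-Azacytidine is a cytidine analogue that, once built into DNA, traps DNA methyltransferases. No transposon map or genome sequence was used here, so whether a given cytosine lies in a transposon was not tested.

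Methylation at these far cytosines was lower than in the control in most listings of each comparison. In the authors' deposited heat table, 43 of 51 far cytosines were lower, or 84.3% (exact 95% interval 71.4 to 93.0%), against 89.4% of all CHH listings of that comparison. With 5-azacytidine 162 of 174 in the authors' deposited table were lower, or 93.1% (88.3 to 96.4%), against 93.4% of all CHH listings. For 5-azacytidine plus heat 399 of 409 were lower in the authors' deposited table, or 97.6% (95.5 to 98.8%), against 97.6% of all CHH listings. All CHH listings include the far ones. Among the listings up to 10000 bp from a gene start alone, the shares lower in the authors' deposited tables were 67 of 72 with heat (93.1%), 263 of 281 with 5-azacytidine (93.6%) and 595 of 609 with both (97.7%). With heat the far share was lower than that among nearer listings, but the interval of the nearer share (84.5 to 97.7%) overlaps that of the far share. With the other treatments the far and nearer shares were close. The intervals cover counting error only and treat neighbouring cytosines as if they were independent. The tables were taken to hold only cytosines past the authors' limits, so a cytosine that is absent from one is not shown to be unchanged.

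Most differences were small. The median absolute difference in the authors' deposited tables was 10.3 percentage points with heat, 9.53 with 5-azacytidine and 9.40 with both, where all CHH listings had medians of 11.1, 9.68 and 9.40. A point is a percentage point of methylation, and a negative sign was read as less methylation in the treated library. The files do not state this, and under the opposite coding higher and lower would trade places. Differences of at least 20 points numbered 6 of 51 with heat, 20 of 174 with 5-azacytidine and 44 of 409 with both in the authors' deposited tables. Such differences made up 13% of all CHH listings with heat, 11.4% with 5-azacytidine and 11.7% with both. Differences of at least 40 points were found in 2, 6 and 17 far listings, 25 of 634 in all. Among all CHH listings they were found in 6 of 123, 26 of 455 and 48 of 1018. Up to 10000 bp from a gene start they were found in 55 of 962, so such differences were not particular to far cytosines. So the 3 comparisons differed in how many far cytosines were listed, and much less in the size of a typical difference. All CHH listings numbered 123, 455 and 1018 in the same order, so the spread in counts was not particular to far cytosines. No listed difference was below 5.01 points, a floor that the sizes in all 3 comparisons share. All 3 comparisons use the same control library, so their values are set side by side here and are not independent.

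The largest falls were single cytosines. In the authors' deposited table for 5-azacytidine plus heat, the cytosine at Lu9 9865144 was 93.8 points lower (q = 0.00352). It lies 11532 bp downstream of the start of Lus10008393, annotated as a relative of GTE1, a bromodomain protein of Arabidopsis. With 5-azacytidine alone, Lu6 18062121 was 92.9 points lower in the authors' deposited table (q = 0.0155), 12823 bp upstream of Lus10002529. That gene is related to AKT1, a potassium channel that takes up potassium in Arabidopsis roots. Heat alone had 1 fall of that order in the authors' deposited table, 85.0 points at Lu7 12675036 (q = 0.0438), near Lus10011639, which has no family description. The next falls with heat, at Lu1 14423657 and 14423669, were 28.0 and 26.9 points in the authors' deposited table. Both lie 11938 and 11950 bp downstream of the start of a Yippee-type zinc-binding protein gene, Lus10008833. In the authors' deposited tables, falls of 90.9 points (Lu14 11323756, 5-azacytidine) and 90.0 points (Lu6 8705048, both) lay near genes without a family description. With both, Lu13 11416571 was 83.8 points lower, near Lus10009768, a gene with a domain of unknown function. In the same comparison Lu1 23650119 was 81.8 points lower, near Lus10007770, related to the peptide carrier OPT6. Lu13 9802839 was 61.2 points lower with both, near Lus10006491, related to the transcription factor BHLH74. Other falls with both lay between these last values, so the genes named are examples.

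The differences with the smallest q-values were not those past 40 points. Of the 25 far listings with a difference of at least 40 points, 0 had a q-value below 0.001 in the authors' deposited tables, and their q-values ran from 0.00352 to 0.0497. From 20 up to 40 points 3 of 45 (6.67%) had such a q-value. Among the 205 listings with differences from 10 up to 20 points, 25 (12.2%) had one, and among the 359 below 10 points 13 (3.62%) had one. The largest difference with a q-value below 0.001 was 30.3 points, a rise. Read coverage was not analysed here.

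**Figure D1:**
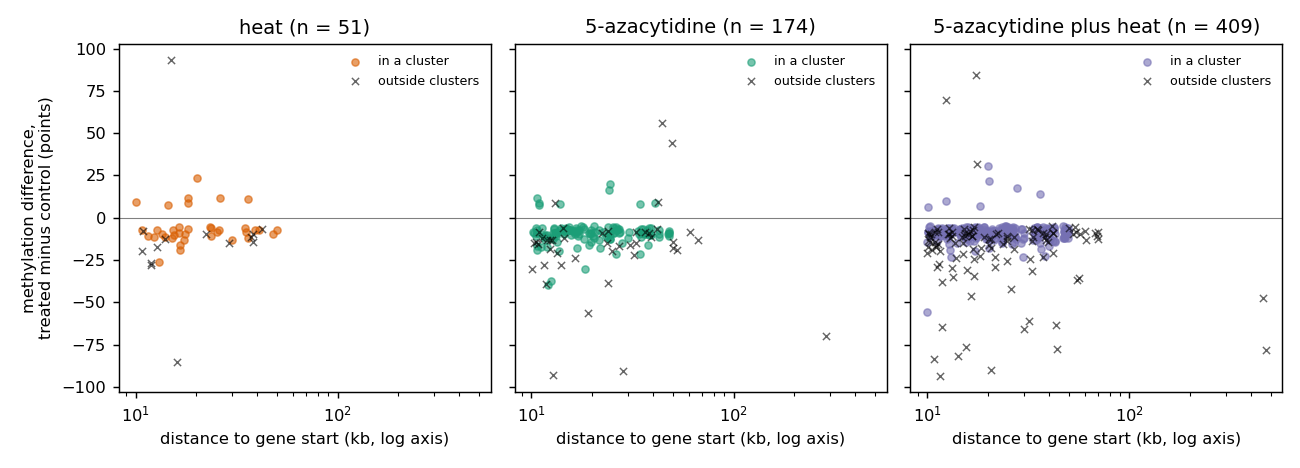
Each point is 1 far CHH listing, with its distance to the nearest gene start (kb, log axis) against its methylation difference from the control (percentage points), 1 panel per comparison. Circles are cytosines in clusters and crosses are cytosines outside them. Most circles lie in a narrow band below 0, and 24 of the 25 listings past 40 points in either direction are crosses.

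With the 3 comparisons pooled, size changed little with distance from 10000 to 50000 bp. Listings from 10000 to 20000 bp numbered 321 (50.6%), those to 30000 bp 136, those to 50000 bp 156, and 21 lay beyond. The median absolute difference in these bins was 9.52, 9.90, 9.09 and 12.4 points in the authors' deposited tables, the last over 21 listings, all lower. With heat alone the medians fell along the bins, at 11.5, 10.1 and 8.98 points over 29, 10 and 12 listings. With 5-azacytidine they were 9.55, 9.50, 9.39 and 16.2 points, the last over 6 listings. With both they were 9.41, 9.96, 8.99 and 9.69 points. Beyond 50000 bp lay 0 of 51 listings with heat, 6 of 174 with 5-azacytidine (3.45%) and 15 of 409 with both (3.67%). At such shares few or none are likely among 51, so no difference between treatments is read from this. The farthest listing with heat was at 49866 bp. The 3 farthest cytosines were all on Lu2. In the authors' deposited table for 5-azacytidine plus heat, Lu2 13387674 and 13401272 were 77.9 and 47.3 points lower, 471540 and 457942 bp upstream of Lus10003537. With 5-azacytidine, Lu2 11247498 was 69.7 points lower in the authors' deposited table, with Lus10007689, whose relatives are inositol phosphate kinases, 287742 bp away as the nearest gene. Another cytosine on the same side of Lus10007689, Lu2 11505249, was 65.9 points lower with both treatments in the authors' deposited table. At the limit of the rule, the nearest members lay at 10006, 10009 and 10015 bp and differed by -21.0, -55.8 and -14.5 points, and the nearest cytosines left out lay at 9997, 9997 and 9988 bp and differed by -27.5, -8.70 and -7.44 points in the authors' deposited tables.

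Far cytosines were spread unevenly over the 15 chromosomes. Lu13 held 121 of 634 (19.1%), Lu3 held 90, Lu5 held 70 and Lu9 held 68. Together these 4 held 349 far listings (55.0%), where they held 287 of the 962 CHH listings up to 10000 bp from a gene start (29.8%). The differences were greatest for Lu13, with 19.1% of far and 5.93% of nearer listings, and for Lu5, with 11.0% and 2.70%. The reverse held for Lu15, with 3.63% of far and 13.1% of nearer listings, and for Lu7, with 1.89% and 12.7%. Lu10, Lu14 and Lu12 had 8, 8 and 7 far listings. Far cytosines can only occur where genes are sparse, and gene density along these chromosomes was not measured here, so its part in the chromosome shares and that of methylation cannot be told apart. Heat had 0 far listings on Lu6, Lu10, Lu11 and Lu12, where 5-azacytidine plus heat had 16, 5, 22 and 5. Heat had 51 far listings in all against 409, so few or none are likely on such chromosomes and no difference between treatments is read from this.

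**Figure D2:**
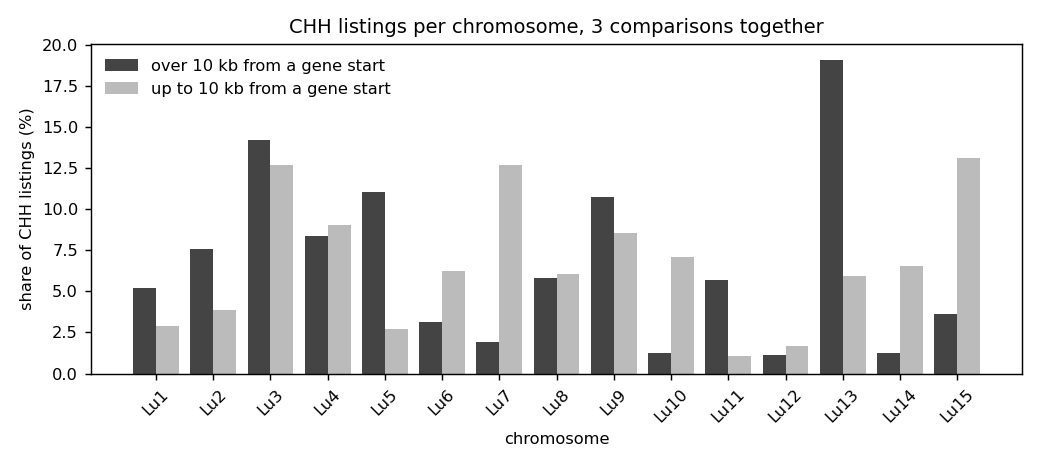
Bars give the share (percent) of CHH listings on each of the 15 chromosomes, the 3 comparisons together, for the 634 listings over 10 kb from a gene start (dark) and the 962 up to 10 kb (light). Lu13 and Lu5 have more than their share of far listings, and Lu7 and Lu15 more of the nearer ones.

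Along a chromosome the far cytosines came in short runs. A cluster was taken as at least 3 far CHH cytosines, from the 3 comparisons together, with gaps of at most 500 bp. There were 77 clusters with 464 listings at 411 cytosines, a median of 4 cytosines and a median span of 423 bp (17 to 2361 bp). They held 37 of 51 listings of heat (72.5%), 130 of 174 of 5-azacytidine (74.7%) and 297 of 409 of both (72.6%). These shares depend on the definition, and were 43.1%, 25.3% and 33.3% with gaps of at most 100 bp and 43.1%, 45.4% and 48.7% with at least 5 cytosines. Built the same way, clusters of all CHH listings held 69.1%, 74.1% and 70.1% of the listings of these comparisons. Clusters built from the CHH listings up to 10000 bp from a gene start held 66.7%, 73.0% and 68.1% of those, somewhat less than the far share in each comparison. Most heat cytosines were in clusters through their neighbours from other comparisons. Clusters built within a comparison alone held 11.8% of far listings for heat, 25.9% for 5-azacytidine and 59.9% for both, the same order as the number of cytosines listed. In the same way the nearest far cytosine of the same comparison lay at a median of 5392 bp with heat, 357.5 bp with 5-azacytidine and 100 bp with both.

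Clustered cytosines differed from scattered ones in size. In clusters the median absolute difference was 8.88 points over 464 listings, and outside it was 14.5 points over 170 in the authors' deposited tables. The same order held with heat (9.52 and 14.6 points), with 5-azacytidine (9.14 and 15.0) and with both (8.70 and 14.0). Differences of at least 20 points were found in 14 clustered listings (3.02%) and in 56 scattered ones (32.9%). Of the 25 past 40 points, 1 was in a cluster, Lu9 12318013, 55.8 points lower with both treatments in the authors' deposited table. The contrast was not particular to far cytosines. Among CHH listings up to 10000 bp from a gene start, 18 of 668 in clusters (2.69%) and 99 of 294 outside (33.7%) reached 20 points, with medians of 9.05 and 13.0 points. With heat 30 of 37 clustered listings (81.1%) and 13 of 14 scattered ones (92.9%) were lower in the authors' deposited table, and the order was the other way with 5-azacytidine (93.8% and 90.9%), while with both the shares were 97.6% and 97.3%.

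**Figure D3:**
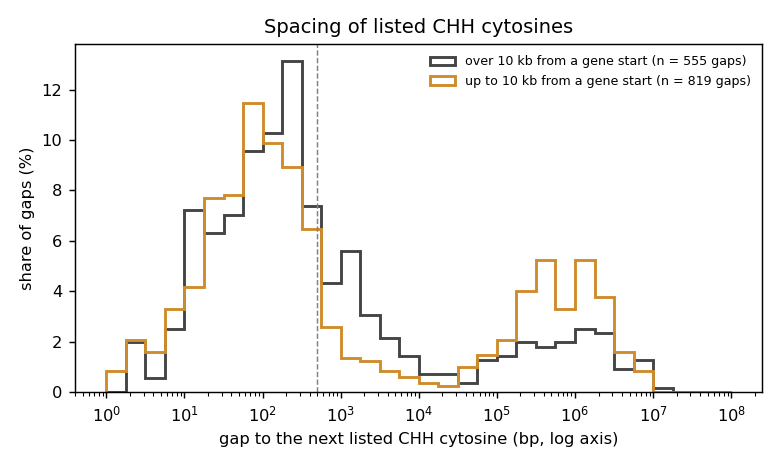
Lines give the share (percent) of gaps between successive listed CHH cytosines on a chromosome (bp, log axis), for cytosines over 10 kb from a gene start (dark, 555 gaps) and up to 10 kb (orange, 819 gaps), the 3 comparisons together. The dashed line marks the 500 bp gap that joins a cluster, and gaps from 1000 to 10000 bp make up 12.3% of those between far cytosines and 4.03% between nearer ones. The distance rule limits where each kind can lie, and its part in the spacing was not tested.

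Clusters in turn sat in longer stretches. Joined at gaps of up to 10000 bp, a distance chosen after the gaps were seen, the 634 listings fell into 112 blocks, of which 49 held 1 listing. There were 6 blocks that held 20 listings or more, and together they had 258 of the 634 (40.7%). Blocks were joined among far listings only, so no such share is given for nearer listings. The distance rule keeps only sequence far from gene starts, and its part in the length of blocks was not tested. Their share was 23 of 51 with heat (45.1%), 73 of 174 with 5-azacytidine (42.0%) and 162 of 409 with both (39.6%). These 6 stretches therefore carried a like part of each comparison, with the control library in common.

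The block with the most listings lay on Lu13 from 6972188 to 7017344, between 10542 and 32391 bp from the starts of Lus10024540 and Lus10024541, which have no family description. Its 80 listings in 9 clusters came from heat (9), 5-azacytidine (26) and both (45), and 76 were lower, with a median difference of -9.00 points in the authors' deposited tables. Of these, 62 listings belonged to Lus10024540, more than to any other gene. The second block lay on Lu3 from 9537214 to 9563941, with 52 listings in 6 clusters, 48 of them lower, a median of -8.77 points, and 6, 14 and 32 listings from heat, 5-azacytidine and both. It is upstream of Lus10019377, related to LAP3, which in Arabidopsis is needed for the pollen wall, and of Lus10019378.

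On Lu5 from 7446062 to 7458026, downstream of the start of Lus10006013, all 51 listings were lower in the authors' deposited tables (5 with heat, 14 with 5-azacytidine, 32 with both), with differences from -38.4 to -5.23 points. All listings were also lower in the block on Lu13 from 11391728 to 11397470 (31), on Lu11 from 9470272 to 9492428 (23) and on Lu8 from 8834534 to 8849260 (21), in the authors' deposited tables. The Lu13 block is the shortest of the 6, at 5743 bp. It is upstream of Lus10009768, a gene with a domain of unknown function (DUF4370), and holds the cluster with most listings, 24 at 20 cytosines within 2361 bp, from -13.4 to -6.16 points. Of its 31 listings, 2 came from heat. The Lu11 block, near Lus10024969, had 0 from heat, 8 from 5-azacytidine and 15 from both.

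**Figure D4:**
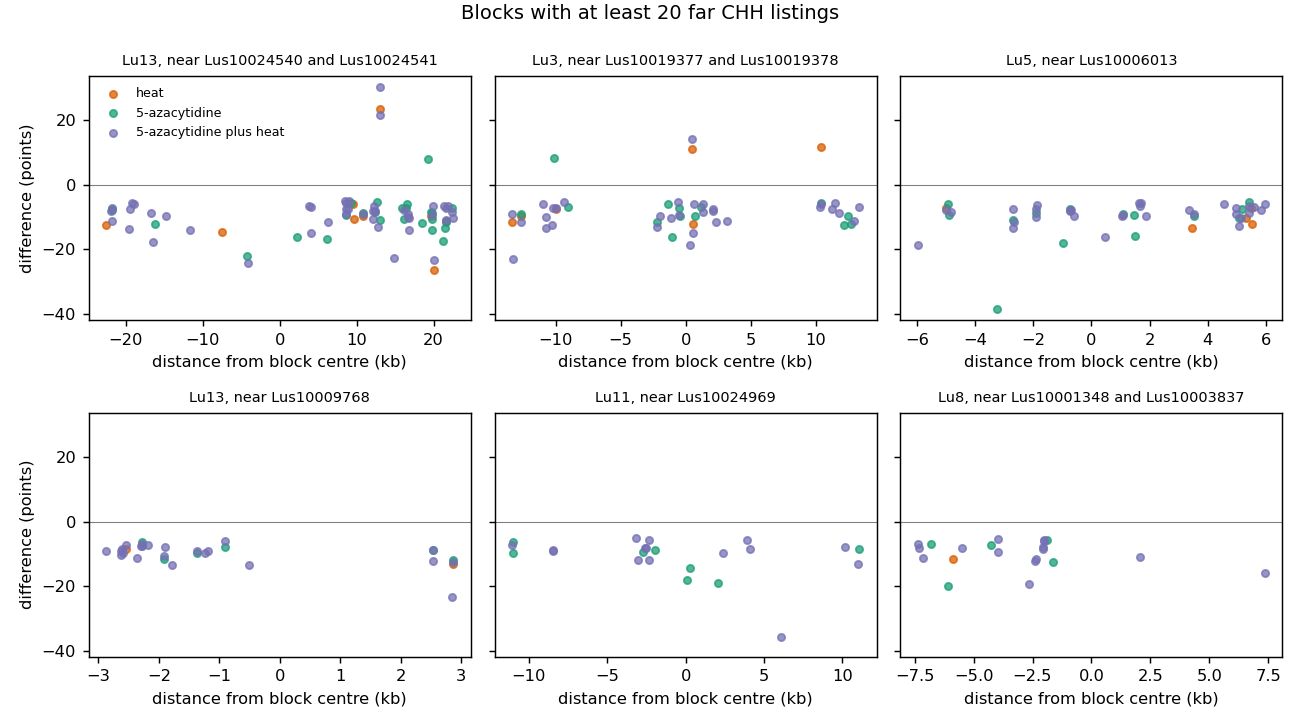
Each panel is 1 of the 6 blocks with at least 20 far CHH listings, with the distance from the block's centre (kb) against the methylation difference from the control (percentage points), coloured by comparison. Short runs of small falls recur along each stretch, and the rises are in the Lu13 block near Lus10024540 and in the Lu3 block.

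Clusters outside the 6 blocks included some near genes with a family description. On Lu2, 16 cytosines from 10825827 to 10827512 had 18 listings, 16 of them lower in the authors' deposited tables, upstream of Lus10002410, which encodes a relative of the soluble NSF attachment protein that helps take apart SNARE complexes after membrane fusion. On Lu4, 12 listings from 4512366 to 4514068 were all lower in the authors' deposited tables, from -11.2 to -5.05 points, upstream of a protein N-terminal acetyltransferase gene, Lus10002468. On Lu3, 10 listings from 23784311 to 23784808 were all lower as well, from -11.1 to -6.29 points in the authors' deposited tables, downstream of the start of Lus10001964, related to inosine monophosphate dehydrogenase, an enzyme of guanine nucleotide synthesis. The 10 clusters with the most listings held 132 of the 634 (20.8%).

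At the start of Lu1, 5 far cytosines lay within the first 2000 bp of the chromosome sequence. All 5 came from 5-azacytidine plus heat and were lower in the authors' deposited table, by 12.6, 18.1, 12.3, 8.12 and 9.83 points at positions 668, 675, 1454, 1468 and 1470. Their nearest gene, 19934 to 20736 bp away, is Lus10036171, related to Tousled-like kinase.

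Of the 77 clusters, 64 held only lower listings, 13 held both directions and 0 held only higher ones. The 30 higher listings, at 26 cytosines, numbered 8 with heat, 12 with 5-azacytidine and 10 with both, and 22 of them were in clusters. Each cluster with a higher listing thus also held lower ones. For 17 of the 30, a far cytosine within 500 bp was lower in the same comparison. With most listings lower, both counts would be likely whether or not neighbours are related, so they are given as a description. Over all far cytosines, neighbours at most 500 bp apart went in the same direction in 7 of 9 pairs with heat, 53 of 59 with 5-azacytidine and 221 of 229 with both (77.8%, 89.8% and 96.5%). With most listings lower in each comparison, most pairs have the same direction whether or not neighbours are alike, so these shares are given as a description.

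The pair with the smallest q-values was on Lu3, upstream of Lus10019378. There the cytosine at 9551078 was 11.2 points higher with heat (q = 9.39e-08) and 14.3 points higher with both (q = 7.65e-14) in the authors' deposited tables. At 36 bp from it, the cytosine at 9551114 was 12.0 points lower with heat (q = 6.47e-07) and 14.9 points lower with both (q = 2.29e-12) in the authors' deposited tables. A CG cytosine 14 bp from the first was higher with it, by 10.7 points with heat and 11.4 with both. Opposite changes at cytosines this close were thus listed in both heated libraries, which share the control.

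A like arrangement lay on Lu4 downstream of the start of Lus10032984, related to TCP13, a transcription factor of leaf development in Arabidopsis. The cytosine at 10983283 was lower by 6.96 points with heat, 6.81 with 5-azacytidine and 7.31 with both in the authors' deposited tables. At 52 bp from it, 10983335 was higher by 11.5 points with heat and 6.70 with both in the authors' deposited tables, and was not listed with 5-azacytidine. On Lu5 the 2 cytosines of 5-azacytidine plus heat at 11035978 and 11035982 were 4 bp apart, 9.94 points lower and 9.64 points higher in the authors' deposited table. They lie near Lus10008763, related to a mitochondrial polyribonucleotide nucleotidyltransferase, an enzyme that processes RNA.

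Some rises were larger. On Lu13 near Lus10024540, the cytosine at 7007818 was 23.4 points higher with heat (q = 0.0151) and 30.3 with both (q = 6.41e-04) in the authors' deposited tables, and 7007801 was 21.6 points higher with both. With 5-azacytidine, Lu9 11041061 and 11041142, near Lus10001094, were 20.2 and 16.2 points higher in the authors' deposited table. The 5 rises past 40 points were all scattered cytosines, 4 of them on Lu9. In the authors' deposited tables, Lu9 9702366 was 93.3 points higher with heat, and Lu9 15511558 and Lu9 14724290 were 84.6 and 69.3 points higher with both. With 5-azacytidine, Lu15 6796755 and Lu9 13013619 were 55.9 and 44.4 points higher in the authors' deposited table. Their nearest genes have no family description.

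CG and CHG cytosines, which have a partner on the opposite strand, were listed near higher far cytosines more often than near lower ones. Within 200 bp and in the same comparison, 10 of 30 higher listings (33.3%) and 41 of 604 lower ones (6.79%) had such a neighbour in the authors' deposited tables. Among CHH listings up to 10000 bp from a gene start the shares were 13 of 37 (35.1%) and 106 of 925 (11.5%). The nearest CG or CHG neighbour went the opposite way for 7 of the 10 higher listings and for 10 of the 41 lower ones. That is, the neighbour itself was lower for 7 of the 10 higher listings and for 31 of the 41 lower ones. Neighbours were thus mostly lower beside either kind, and no relation between their directions is read from these counts. Several of these listings are neighbours, so they are not independent cases, and no test was made.

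On Lu1 upstream of Lus10005736, the far CHH cytosines at 24558823, 24558834 and 24559037 were 8.87, 7.46 and 11.6 points higher with 5-azacytidine in the authors' deposited table. Between them, the CHG cytosine at 24558976 was 18.0 points lower, and the CG cytosines at 24558995 and 24559010 were 7.66 and 17.5 points lower. A CHH cytosine at 24559026 was also 16.8 points lower (q = 1.08e-04). On Lu2 near Lus10002410, the CHH cytosine at 10827462 was 9.01 points higher with heat and 6.10 with both in the authors' deposited tables, and the CHG cytosine 3 bp away was 23.5 and 21.2 points lower. At these 2 places, listed cytosines of different contexts differed from the control in opposite directions.

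Across the comparisons, 57 of the 570 distinct far cytosines were listed more than once, 50 in 2 comparisons and 7 in all 3. The 962 CHH listings up to 10000 bp from a gene start lay at 834 cytosines, so repeats were not particular to far cytosines. On Lu13, 11397470 upstream of Lus10009768 was lower by 13.0 points with heat, 11.8 with 5-azacytidine and 12.5 with both in the authors' deposited tables. Near Lus10024540 on the same chromosome, 7016332 was lower by 11.1, 11.5 and 10.9 points in the authors' deposited tables, in that order of comparisons, and 7005585 by 9.58, 8.83 and 8.98 points. On Lu3, upstream of the LAP3 relative Lus10019377, 9537938 was lower by 9.56, 8.95 and 11.5 points and 9525028 by 8.71, 8.98 and 8.21 points in the authors' deposited tables. On Lu9, 9514092, downstream of the start of the ABC transporter gene Lus10004896, was lower by 7.42, 9.21 and 9.79 points in the authors' deposited tables. The seventh is Lu4 10983283 near the TCP13 relative, given above. Since the comparisons share the control library, nothing is read from how close the 3 values of a cytosine are.

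**Figure D5:**
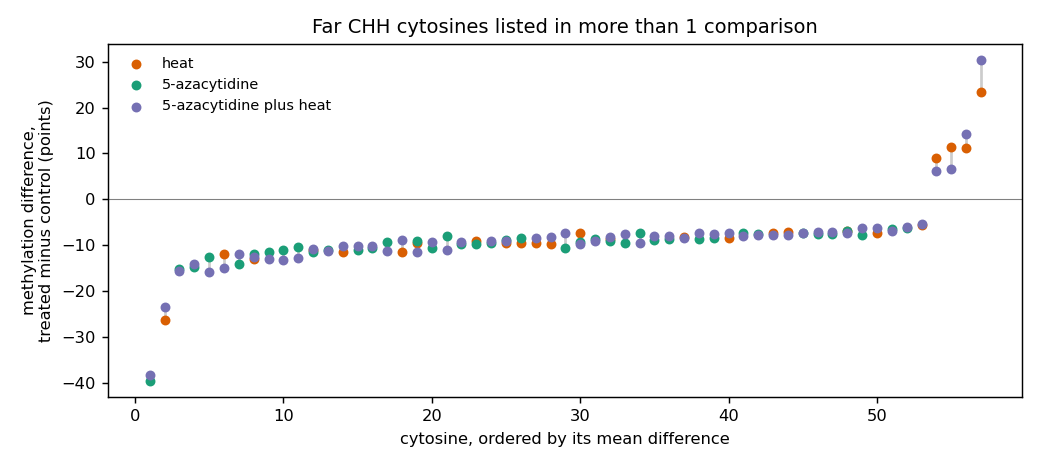
The 57 far CHH cytosines listed in more than 1 comparison are ordered by their mean difference, with the methylation difference from the control (percentage points) in each comparison as a point and a grey line joining the points of 1 cytosine. The values of a cytosine lie within 6.95 points of each other, and they share the control library.

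The 634 listings have 114 nearest genes, of which 69 have a family description in the deposited tables. Of the listings, 332 (52.4%) were at 12 genes, and 45 genes had 1 listing each. All 1596 CHH listings had 358 nearest genes, and the 962 up to 10000 bp from a gene start had 264. How concentrated those were was not measured. Only genes beside sequence more than 10000 bp from any gene start can appear here, so the rule itself limits the number of genes. A nearest gene at such distances names a place and does not show that the gene is affected. Genes were grouped by words in these descriptions, so a group holds what its words matched and misses members described otherwise. Counts are given for far listings only. Whether a group is more or less common among them than among other CHH listings is not shown. Descriptions with words for signalling (such as kinase or phosphatase) had 31 listings at 7 genes, 30 of them lower, with a median of -11.3 points. Of these, 17 were at 1 protein phosphatase gene, Lus10008761, and 2 at Lus10005305, a pyridoxal phosphatase of vitamin B6 metabolism that the word phosphatase brought in. The words missed Lus10001604, related to the blue-light receptor phototropin-2, with 2 lower listings. The largest in this group were those near the inositol phosphate kinase relative on Lu2, and, with both treatments, a fall of 29.3 points at Lu2 8900869 near Lus10001383, related to the calcium-sensor-regulated kinase CIPK8, in the authors' deposited table. With heat, the 2 listings of the group were falls of 19.0 and 15.9 points on Lu4 near that protein phosphatase gene in the authors' deposited table. Over all 634 listings the median was -9.27 points and 95.3% were lower.

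Descriptions with words for transport had 16 listings at 4 genes, all lower, with a median of -10.6 points in the authors' deposited tables. Of these, 10 were at the ABC transporter gene Lus10004896. Words for transcription factors matched 13 listings at 6 genes, 10 of them lower and 3 higher, the latter near the TCP13 relative. They missed several described families. Lus10008374, of the YABBY family that sets leaf polarity in Arabidopsis, had 4 listings, 3 of them lower and 1 higher by 7.23 points with heat in the authors' deposited tables. Lus10011660, related to the repressor KAN1, had 2 listings, 29.0 and 27.2 points lower, and Lus10017807 (NAM), Lus10003313 (B3 domain) and Lus10019368 (NLP8-related) had 1 lower listing each. Among the matched genes, the cytosines at Lu3 10453384 and 10453778 near Lus10004796, related to a nuclear factor Y subunit, were 39.8 and 37.2 points lower with 5-azacytidine in the authors' deposited table. With heat, Lu13 10852389 near Lus10032848, related to the zinc-finger protein AZF3, was 19.7 points lower in the authors' deposited table. Words for protein turnover matched 11 listings at 2 genes, all lower, 10.0 points at the median. Of these, 10 were at 1 gene, Lus10011702, so they describe mainly 1 place. They missed Lus10008368, a protein with a U-box, a domain found in ubiquitin ligases, whose 1 listing was 31.5 points higher with both in the authors' deposited table. The largest matched fall was Lu9 12311951 near an ATL42-related ubiquitin ligase gene, Lus10011702, 19.3 points lower with 5-azacytidine in the authors' deposited table. Words for hormones matched 2 listings, both from 5-azacytidine plus heat, 21.6 and 14.4 points lower near Lus10012675, which encodes abscisic acid 8'-hydroxylase, an enzyme that breaks down abscisic acid, in the authors' deposited table.

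Words for plastids matched 2 listings, near a chloroplast aspartate aminotransferase gene, Lus10001938, 17.1 points lower with heat and 13.3 points lower with 5-azacytidine at different cytosines in the authors' deposited tables. The DNA methylation and chromatin group had 1 listing, 8.33 points lower with both in the authors' deposited table, near Lus10012411, related to TAF9, which entered the group through the word histone in its description. Words for chaperones, transposable elements, redox enzymes, and cell wall and fibre matched 0 listings. That does not show that such genes are absent. In the authors' deposited tables, Lus10010647, related to WALLS ARE THIN 1, had 1 listing, 36.7 points lower with both, Lus10006885, like cinnamoyl-CoA reductase, an enzyme type of lignin synthesis, had 4 lower listings, and Lus10011641, related to a protein disulfide-isomerase, which helps proteins fold, had 3 lower listings. The genes named here as missed were found by reading the descriptions after the values were seen. A further 326 listings have a nearest gene with no family description.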

How the data were processed

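Bisulfite sequencing libraries were 1 per group. Per the submitters' processing notes, Trimmomatic, FastQC, BWA, MethylDackel and methylKit were used, with no versions named. Genome build and coverage limit: not given in the sources used here. There are 9 tables, 1 per comparison and cytosine context. Each row, per the file headers, holds a position with the authors' p-value and q-value, the difference in methylation, gene identifiers and how far the gene start is. That difference is a score in percentage points, as deposited. Across the 1894 listings, q-values reached 0.0499 at most and absolute differences were at least 5.01 points.

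Far CHH cytosines were rows of the CHH tables with an absolute distance above 10000 bp. A negative distance was read as upstream. Positions are the deposited starts, and whether they count from 0 or 1 is not stated. Gene starts implied by position and distance agreed within 1 bp for all 68 genes with 2 or more far cytosines, 67 of them exactly. In 1 row the 2 gene identifiers were paired otherwise than elsewhere. Strand entries and free-text protein hits were not used. CG and CHG tables served only for neighbours within 200 bp.

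Each group is 1 library, so no test between groups was made; intervals are exact Clopper-Pearson at 95%. Named cytosines were drawn from the 5 largest rises and falls per comparison, the 5 farthest and those listed in all 3 comparisons. They were also drawn from the 10 clusters with most listings and the 2 largest per word list and comparison. Not all of these are named. The other cytosines named, the blocks and the opposite pairs were picked with the values in view. The members and lists were chosen with earlier results of these data known. The code that joins cytosines was checked on simulated positions with known groups; clustering itself was not tested against chance. Python 3.11.15, pandas 2.3.3, numpy 2.4.6, scipy 1.17.1 and matplotlib 3.10.9 were used.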

Additional observations from a re-analysis of the deposited data

How the results depend on the processing

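Of 54 alternative values, 28 were labelled the same as the main value and 26 were labelled moved. Intervals are given above only for the shares lower, and the limits behind the other labels are not given here. Absolute medians, shares in clusters and numbers of listings have no direction that could change. The shares lower stayed at 60% or above at each setting tried. At a q-value below 0.001 the far listings numbered 5 with heat, 13 with 5-azacytidine and 23 with both, the share lower was 60% with heat (over 5 listings) and 91.3% with both, and the median absolute difference with both was 11.5 points. With 1 value per group of joined cytosines that median was 9.90 points. Above 20000 bp the numbers were 22, 82 and 209, and above 5000 bp they were 277 with 5-azacytidine and 642 with both. The share in clusters, in the order heat, 5-azacytidine and both, was 43.1%, 25.3% and 33.3% at a gap of 100 bp, 43.1%, 45.4% and 48.7% with at least 5 cytosines, and 11.8%, 25.9% and 59.9% within a comparison alone. At 2000 bp it was 85.1% with 5-azacytidine and 82.2% with both. At 10000 bp, chosen after seeing the data, it was 86.3%, 87.4% and 85.1%. A wider gap, or a lower minimum, can only enlarge clusters, and a stricter limit can only remove cytosines. No paired analysis was possible because each group has 1 library and the values come from no test. Depth per cytosine is unknown, so precision per value cannot be given.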
